A study of Homo sapiens with 6 samples.

Results

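MicroRNA genes were followed in PC-3 cells, an androgen-independent human prostate carcinoma line, after exposure to menthol. A gene was counted as a member when its array probeset carried a single symbol made of MIR and a number, or of MIRLET7, in the platform annotation. Symbols of host transcripts, which end in HG, were left out. This gave 173 of the 18404 genes measured, each read by 1 probeset. Another 30 probesets carried a microRNA symbol together with other symbols and were not used.

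The menthol group comprised 3 arrays of cells given menthol dissolved in ethanol. The vehicle group comprised 3 arrays of cells given ethanol alone, at a working concentration of 0.1%. Both groups were the same line, kept in DMEM with 10% serum, and each labelling reaction used 300 ng of RNA. The labels give neither the dose of menthol nor the length of exposure. Values are log2 of the deposited intensity. Replicate arrays correlated at 0.995 to 0.997 over all genes, and arrays of different groups at 0.987 to 0.989. The epithelial markers KRT8, KRT18, EPCAM, CDH1, KRT19 and KRT7 lay between percentiles 87.6 and 99.0 of gene levels. PTPRC, CD3E, CD14, PECAM1, VWF, CDH5, COL1A2, DCN and DES, markers of blood, endothelial, stromal and muscle cells, lay between percentiles 1.95 and 41.8, and COL1A1 at 70.7. KLK3 and KLK2, androgen-driven genes of the prostate, lay at percentiles 32.2 and 33.6.

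A microRNA gene is transcribed into a long primary transcript that folds into a hairpin, either on its own or inside an intron or exon of a host gene. DROSHA with DGCR8 cuts the hairpin free in the nucleus, XPO5 exports it, DICER1 trims it to a short duplex, and 1 strand guides an Argonaute protein to messenger RNAs. Pairing of the seed, near the 5′ end of the mature strand, largely sets which messages are repressed. Whole-transcript arrays label RNA by random priming, so a probeset on a microRNA gene reads the primary transcript, the precursor or the host transcript. Mature microRNA was not measured.

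The mature strands of members with the largest changes are shown first, because members that share a seed did not all move together. Sequences are from RefSeq (GRCh38.p14), 5′ to 3′, with the seed (bases 2 to 8) in capitals. miR-221 and miR-222 share a seed, and both genes fell.
hsa-miR-221-3p: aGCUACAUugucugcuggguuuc
hsa-miR-222-3p: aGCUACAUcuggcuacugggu
miR-107 and miR-103a share a seed and most of the strand, and their genes changed in opposite directions (MIR107 lower, MIR103A2 higher).
hsa-miR-107: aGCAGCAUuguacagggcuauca
hsa-miR-103a-3p: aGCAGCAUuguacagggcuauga
miR-15b and miR-16 share a seed and lie on the same transcript, while miR-503 has a related one. MIR15B fell, MIR16-2 did not pass the test, and MIR503 rose.
hsa-miR-15b-5p: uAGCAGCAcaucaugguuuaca
hsa-miR-16-5p: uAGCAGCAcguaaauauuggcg
hsa-miR-503-5p: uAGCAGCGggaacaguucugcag
The let-7 genes MIRLET7A2 (lower) and MIRLET7E (higher) give strands that share a seed.
hsa-let-7a-5p: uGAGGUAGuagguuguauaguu
hsa-let-7e-5p: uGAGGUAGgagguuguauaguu
The remaining strands belong to MIR146A, MIR24-2 and MIR21, which fell, and to MIR365A, MIR423 and MIR331, which rose.
hsa-miR-146a-5p: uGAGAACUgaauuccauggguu
hsa-miR-24-3p: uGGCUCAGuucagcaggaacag
hsa-miR-21-5p: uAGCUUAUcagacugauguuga
hsa-miR-365a-3p: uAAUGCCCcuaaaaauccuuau
hsa-miR-423-5p: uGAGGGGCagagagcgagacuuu
hsa-miR-331-3p: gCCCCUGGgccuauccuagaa

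The hairpins of the members that changed most in each direction, of the co-transcribed pair MIR221 and MIR222, and of the alike pair MIR107 and MIR103A2 are shown with the mature strand in capitals. MIR146A lies at chr5:160485352-160485450 on the plus strand, and MIR365A at chr16:14309285-14309371 on the plus strand. MIR221 lies at chrX:45746157-45746266 and MIR222 at chrX:45747015-45747124, both on the minus strand. MIR107 lies at chr10:89592747-89592827 on the minus strand within PANK1, and MIR103A2 at chr20:3917494-3917571 on the plus strand within PANK2.
MIR146A hairpin: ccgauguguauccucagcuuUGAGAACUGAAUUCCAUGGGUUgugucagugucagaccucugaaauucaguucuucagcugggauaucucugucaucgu
MIR365A hairpin: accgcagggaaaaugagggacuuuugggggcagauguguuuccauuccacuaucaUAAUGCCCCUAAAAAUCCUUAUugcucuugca
MIR221 hairpin: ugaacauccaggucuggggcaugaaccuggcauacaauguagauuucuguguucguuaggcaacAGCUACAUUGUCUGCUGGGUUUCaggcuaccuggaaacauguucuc
MIR222 hairpin: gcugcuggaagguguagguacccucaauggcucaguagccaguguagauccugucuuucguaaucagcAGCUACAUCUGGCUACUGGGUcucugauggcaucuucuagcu
MIR107 hairpin: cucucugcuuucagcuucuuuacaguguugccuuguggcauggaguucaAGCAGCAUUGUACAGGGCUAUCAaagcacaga
MIR103A2 hairpin: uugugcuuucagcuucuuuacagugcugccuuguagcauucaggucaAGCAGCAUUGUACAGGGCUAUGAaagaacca
Aligned, the hairpins of MIR107 and MIR103A2 had 69 identical bases, 85.2% of the 81 of the longer hairpin. MIR221 and MIR222 had 65 of 110 (59.1%). Outside the members, MIR24-1 had 57 bases identical to MIR24-2 (78.1%), and MIR29B2 had 68 identical to MIR29B1 (84.0%). How far probes for such alike hairpins read each other's transcripts was not tested.

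With menthol, 11 microRNA genes fell, by up to 2.15-fold, and 23 rose, by up to 1.79-fold. MIR146A, the MIR221 and MIR222 pair, MIR24-2 and MIR15B had the largest decreases, and MIR365A, MIR423 and MIR103A2 the largest increases. The groups were compared with limma on log2 intensity, with Benjamini-Hochberg adjustment over all 18404 genes and a threshold of 0.05. Of the 173 members, 34 passed the test, 19.7%, against 29.1% of all genes. Higher with menthol were 23 members (13.3%), against 14.6% of all genes, and 11 were lower (6.36%), against 14.5%. Under cyclic loess normalization the same test called 22 members, 11 higher and 11 lower, against 28.2% of all genes, and under quantile normalization 26, of which 15 were higher, against 28.7%. With each probeset tested singly it called 11 members, 6 higher and 5 lower, against 17.3%. Of all 173 members, 2 passed with a rise of at least 1.5-fold and 5 with such a fall, against 2.99% and 2.62% of all genes. The count varied with the array left out: 22, 20 and 33 members passed without menthol replicates 1, 2 and 3. Without vehicle replicates 1, 2 and 3 it was 19, 23 and 14. Over all genes, 20.9% to 26.2% passed with 1 array left out. In bulk RNA, fewer cells with a transcript and less of it per cell cannot be told apart. Nothing in the labels says that the replicates came from separate cultures. The p-values therefore measure the spread between these arrays, which may be technical, and 3 arrays a group limit the precision. On the same test the epithelial markers KRT8, KRT18, EPCAM, CDH1, KRT19 and KRT7 all rose with menthol, by 0.56 to 1.11 on the log2 scale. Of the markers of other cell types, PECAM1 rose by 0.60, DCN by 0.36 and COL1A2 by 0.21, and the others did not pass. The part of these shifts in the members' changes was not tested.

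**Figure D1:**
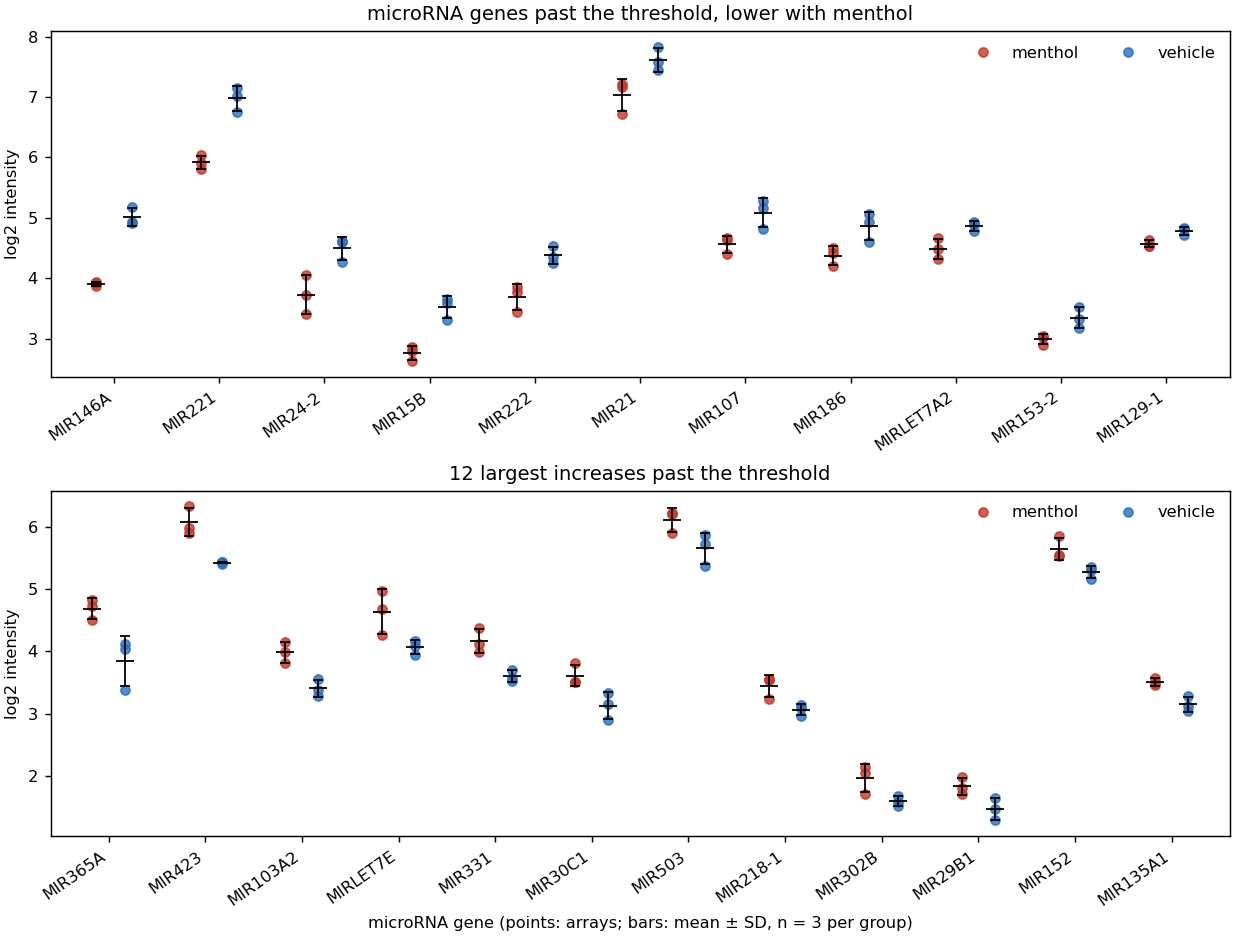
Log2 intensity of the 11 lower microRNA genes (top) and of the 12 with the largest increases (bottom), with menthol arrays left of vehicle arrays; points are arrays and bars the mean ± SD. MIR146A sat between 3.87 and 3.93 on menthol arrays, below its vehicle values of 4.91 to 5.19.

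The members were dim. Their median level was 3.79 on the log2 intensity scale, against 6.47 for all genes, and levels ran from 1.52 for MIR190A to 7.94 for MIR326. All genes were ranked by level into 4 bins of 4601. The dimmest bin held 122 members, the next 40, the third 11 and the brightest 0. In the dimmest bin 16 of 122 members were higher and 8 lower, against 10.3% and 1.91% of all genes in it. Among the 40 members of the next bin 5 were higher and 2 lower, against 13.4% and 9%. Among the 11 members of the third bin 2 were higher and 1 lower, against 17.5% and 20.2%. The median change of the dimmest members, 0.10 on the log2 scale, was also 0.10 over all genes of that bin. Over all 173 members the median was 0.11, against 0.03 for all genes. Under cyclic loess it was 0.031 against 0.015, and under quantile normalization 0.069 against 0.035. Changes were positive for 115 members and negative for 58, so 66.5% were positive, against 56.0% of all genes. In the dimmest bin 64.8% of members had positive changes, against 72.0% of all genes in it. The groups did not overlap for 39 higher and 11 lower members, against 23.5% and 21.7% of all genes. The median SD between replicates was 0.15 on menthol and 0.13 on vehicle arrays for members, against 0.10 and 0.08 for all genes.

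**Figure D2:**
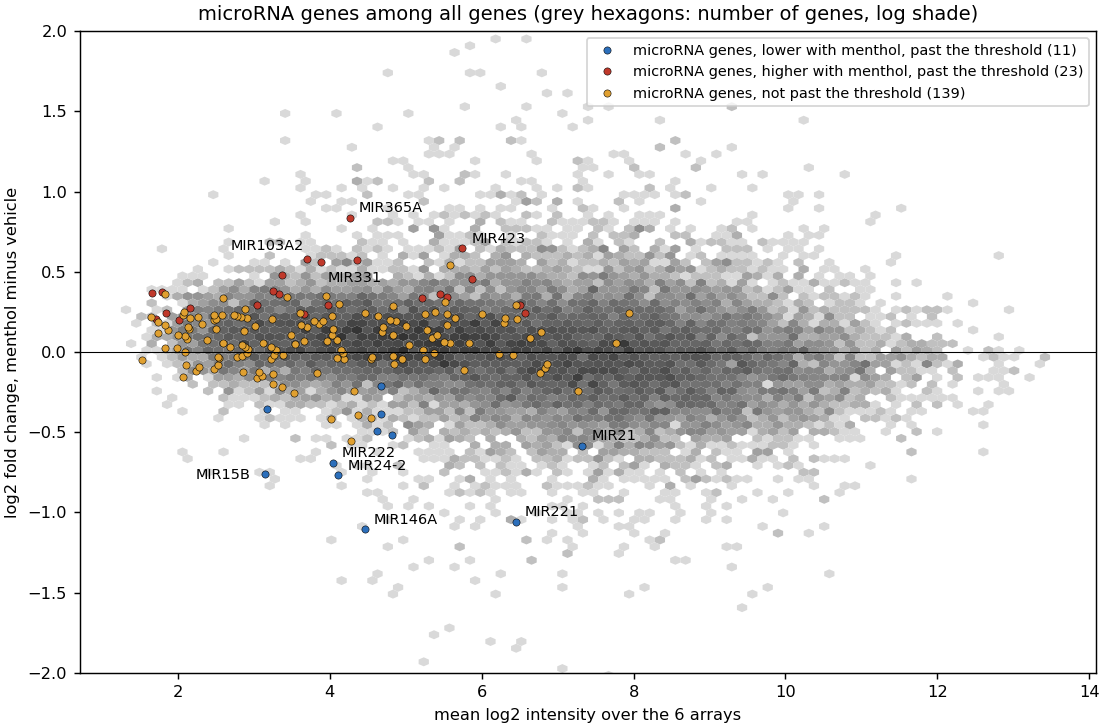
Log2 fold change (menthol minus vehicle) against mean log2 intensity, with all genes as shaded bins and the 173 microRNA genes as points. The members crowd at the dim end, with a median level of 3.79 against 6.47 for all genes, and the decreases reach -1.10.

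MIR146A had the largest decrease of all members. It is induced by NF-kB and represses IRAK1 and TRAF6, adaptors of Toll-like and interleukin-1 receptor signalling. It measured 3.93, 3.87 and 3.92 on menthol arrays, against 4.94, 5.19 and 4.91 on vehicle arrays. Every menthol array lay below every vehicle array. The difference was -1.10 ± 0.08 (SE, n = 3 each) on the log2 scale, a 2.15-fold decrease (limma adjusted p = 0.000143). Its host transcript, MIR3142HG, was not measured by a probeset of its own.

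MIR221 and MIR222 are made from 1 transcript on the X chromosome, and their products repress the cell cycle inhibitor CDKN1B. MIR221 measured 5.91, 5.81 and 6.03 on menthol arrays, against 7.02, 6.76 and 7.15 on vehicle arrays. MIR222 measured 3.45, 3.85 and 3.77 on menthol arrays, against 4.35, 4.26 and 4.53 on vehicle arrays. The groups did not overlap for either gene. MIR221 fell by 1.06 ± 0.11 (SE) and MIR222 by 0.69 ± 0.12, with limma adjusted p = 0.000507 and 0.00458. This was 1 of 29 clusters, groups of at least 2 members starting within 10000 bases on 1 strand, and the sole cluster with a call in which every member was called.

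MIR24-2 lies in a cluster with MIR27A and MIR23A on chromosome 19. It measured 3.40, 3.73 and 4.05 on menthol arrays, against 4.60, 4.27 and 4.62 on vehicle arrays. No menthol array reached the lowest vehicle array. MIR24-2 fell by 0.77 ± 0.17 (limma adjusted p = 0.0117). Its neighbours did not pass. MIR27A averaged 5.37 ± 0.15 on menthol and 5.37 ± 0.10 on vehicle arrays (SD, n = 3 each), and MIR23A 5.62 ± 0.11 and 5.56 ± 0.18. Their adjusted p were 0.977 and 0.708. Whether the 3 changes differ was not tested.

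MIR15B and MIR16-2 lie in an intron of SMC4, which encodes a condensin subunit, and their family represses BCL2 and cyclins. MIR15B measured 2.86, 2.63 and 2.80 on menthol arrays, against 3.32, 3.66 and 3.59 on vehicle arrays, with no overlap. It fell by 0.76 ± 0.11 (limma adjusted p = 0.0017). MIR16-2, downstream in the same intron, averaged 2.70 ± 0.14 on menthol and 2.67 ± 0.19 on vehicle arrays (adjusted p = 0.862). Both were dim, MIR15B at percentile 6.77 of gene levels. Of the 5 measured genes that share this seed, MIR15B alone passed, and MIR15A, MIR16-1, MIR16-2 and MIR195 ranged from -0.42 to 0.30.

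MIR21, whose product represses PDCD4 and is abundant in many carcinomas, was the third brightest member. It measured 6.72, 7.21 and 7.17 on menthol arrays, against 7.83, 7.44 and 7.58 on vehicle arrays. Menthol replicate 1 was the lowest and vehicle replicate 1 the highest. It fell by 0.58 ± 0.15 (limma adjusted p = 0.0222). The adjusted p was 0.0698 without vehicle replicate 1 and 0.0547 without vehicle replicate 3. VMP1, the autophagy gene whose span holds MIR21, rose by 0.28 ± 0.06 (adjusted p = 0.0079).

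MIR107 and MIR103A2 lie within PANK1 and PANK2, genes of pantothenate kinases that start coenzyme A synthesis, and their products repress DICER1 among other targets. MIR107 measured 4.63, 4.67 and 4.40 on menthol arrays, against 4.81, 5.28 and 5.16 on vehicle arrays. MIR103A2 measured 4.15, 3.81 and 3.99 on menthol arrays, against 3.39, 3.28 and 3.56 on vehicle arrays. Neither gene's groups overlapped, and the order was opposite. MIR107 fell by 0.52 ± 0.13 (limma adjusted p = 0.0199) and MIR103A2 rose by 0.58 ± 0.11 (adjusted p = 0.00605). The decrease of MIR107 did not pass without menthol replicate 3 (0.0617), vehicle replicate 2 (0.0602) or vehicle replicate 3 (0.0655). MIR103A1, a copy that gives the same mature strand as MIR103A2, averaged 3.54 on menthol and 3.43 on vehicle arrays (adjusted p = 0.513).

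The other 4 lower members changed less. MIR186, in an intron of the splicing factor gene ZRANB2, averaged 4.37 ± 0.16 on menthol and 4.87 ± 0.24 on vehicle arrays (SD, n = 3 each). MIRLET7A2 averaged 4.48 ± 0.17 on menthol and 4.87 ± 0.08 on vehicle arrays. MIR153-2 and MIR129-1 fell by 0.35 ± 0.10 and 0.21 ± 0.07. The limma adjusted p of these 4 members ran from 0.0206 to 0.0454, and every one was lost when some single arrays were left out. MIR186 did not pass without menthol replicates 1 or 3 or vehicle replicates 2 or 3 (0.054 to 0.0783), nor MIRLET7A2 without menthol replicates 1 or 2 or vehicle replicates 2 or 3 (0.0525 to 0.0678). MIR153-2 passed without vehicle replicate 2 and otherwise reached 0.0515 to 0.0928, and MIR129-1 passed without menthol replicate 1 and otherwise reached 0.0534 to 0.141. MIR129-1 also failed with a trended robust prior (0.161).

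MIR365A, which shares a transcript with MIR193B, had the largest increase. It measured 4.83, 4.50 and 4.73 on menthol arrays, against 4.11, 4.04 and 3.39 on vehicle arrays. Vehicle replicate 3 was the lowest, and no vehicle array reached the menthol arrays. The increase was 0.84 ± 0.19 (SE), 1.79-fold (limma adjusted p = 0.0132). MIR423 measured 5.90, 6.32 and 5.98 on menthol arrays, against 5.41, 5.43 and 5.43 on vehicle arrays. It rose by 0.65 ± 0.11, 1.57-fold (adjusted p = 0.004), and its vehicle arrays were nearly equal. MIR331, whose product represses ERBB2 in prostate carcinoma cells, measured 4.37, 4.12 and 3.99 on menthol arrays, against 3.71, 3.53 and 3.57 on vehicle arrays. It rose by 0.56 ± 0.10 (adjusted p = 0.00623).

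MIR135A1 rose by 0.36 ± 0.08 (limma adjusted p = 0.0116), with 3.50, 3.58 and 3.45 on menthol arrays against 3.05, 3.28 and 3.12 on vehicle arrays. MIR365A, MIR423, MIR103A2, MIR331 and MIR135A1 among the increases, and MIR146A, MIR221, MIR24-2, MIR15B and MIR222 among the decreases, passed at 0.05 in every alternative that tested them, single arrays left out included. These were 10 of the 34 calls, and the other 24 were each lost in at least 1 alternative. Of the 10, the filters on dim genes tested MIR221 and MIR423 alone. The rest lay at percentiles 6.77 to 21.2 of gene levels, below both filters. Whether signals this dim lie above background was not tested.

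The other increases were lost when some single arrays were left out. MIR503, a relative of the miR-15 and miR-16 family, measured 6.22, 6.21 and 5.89 on menthol arrays, against 5.86, 5.37 and 5.72 on vehicle arrays. It rose by 0.45 ± 0.14 (limma adjusted p = 0.0454), and did not pass without menthol replicates 1 or 2 or vehicle replicates 2 or 3 (0.0813 to 0.124), under cyclic loess (0.0607) or under quantile normalization (0.0527). MIR30C1 rose by 0.48 ± 0.13 (0.0268) and was lost without menthol replicate 2 or vehicle replicates 1 or 2 (0.0633 to 0.0779) and under cyclic loess (0.0694). MIR218-1, inside the guidance ligand gene SLIT2, rose by 0.38 ± 0.10 (0.0242) and was lost without menthol replicates 1 or 2 or vehicle replicates 2 or 3 (0.0572 to 0.0796). MIR152, whose product represses DNMT1, rose by 0.36 ± 0.10 (0.031) and was lost without menthol replicate 3 or vehicle replicates 1 or 2 (0.0564 to 0.0975) and under cyclic loess (0.0644). The 11 higher members outside the 12 with the largest increases rose by 0.20 to 0.34.

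MIR302B, of a family known from pluripotent stem cells, and MIR29B1, of a family that represses collagen genes, were among the dimmest genes on the arrays, at percentiles 0.163 and 0.0706. MIR302B measured 2.05, 2.15 and 1.72 on menthol arrays, against 1.68, 1.59 and 1.52 on vehicle arrays. MIR29B1 measured 1.72, 1.99 and 1.81 on menthol arrays, against 1.65, 1.47 and 1.29 on vehicle arrays. No detection call was used here, so whether such dim signals lie above background was not tested. The fitted differences were 0.38 ± 0.11 and 0.37 ± 0.11 (limma adjusted p = 0.0415 and 0.0385), and neither passed under cyclic loess (0.114 and 0.142) or quantile normalization (0.108 and 0.12). MIR302B did not pass without menthol replicates 1 or 2 or any one vehicle replicate (0.0671 to 0.12), nor MIR29B1 without menthol replicates 2 or 3 or vehicle replicates 2 or 3 (0.075 to 0.113).

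The let-7 genes, whose products repress RAS, HMGA2 and LIN28 messages, did not all move together. Of 10 measured genes with this seed, MIR98 included, 2 were higher, 1 was lower and 7 did not pass. The called share was 30%, near the 29.1% of all genes. MIRLET7E measured 4.97, 4.69 and 4.26 on menthol arrays, against 4.08, 4.17 and 3.94 on vehicle arrays, and rose by 0.57 ± 0.16 (limma adjusted p = 0.035). That call was lost without menthol replicates 1 or 2 or any one vehicle replicate (0.0569 to 0.105). MIRLET7C rose by 0.27 ± 0.08 (0.0342), lost without menthol replicates 1 or 2 or vehicle replicates 1 or 3 (0.0791 to 0.109), under cyclic loess (0.132), under quantile normalization (0.091) and with a trended robust prior (0.114). MIRLET7D was higher by 0.54 ± 0.21 without passing (0.0944), with 6.29, 5.38 and 5.88 on menthol arrays against 5.42, 5.10 and 5.40 on vehicle arrays. It passed without menthol replicate 2 (0.0139). MIRLET7F1 differed by -0.41 ± 0.16 (0.097) and passed without menthol replicate 3 (0.0226) or with a trended robust prior (0.0483). MIRLET7A1, MIRLET7F2, MIRLET7G, MIRLET7I and MIR98 ranged from -0.13 to 0.25.

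**Figure D3:**
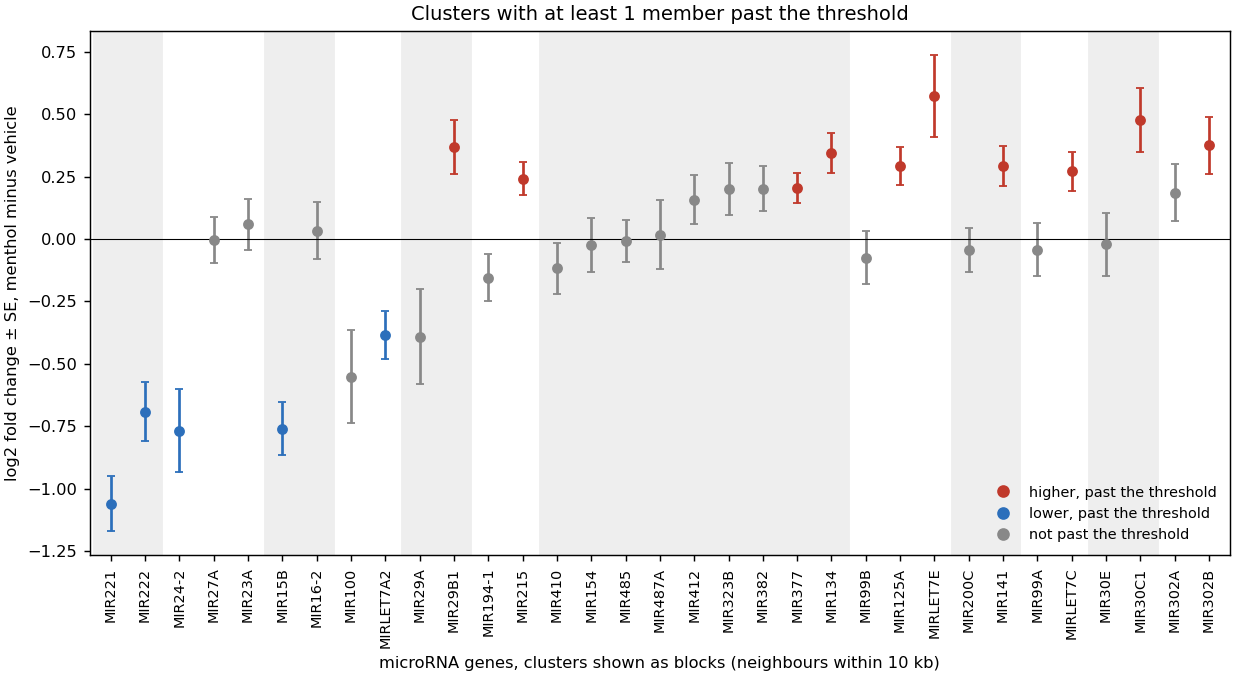
Log2 fold changes (menthol minus vehicle, ± SE) of every member in the 12 clusters that held a called gene. Both members of the MIR221 cluster lie below 0, while MIR24-2 lies at -0.77 beside MIR27A and MIR23A near 0.

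Of the 75 members in clusters, 15 were called (20%), against 29.1% of all genes. The 12 clusters that held these calls had 33 members, of which 10 were higher and 5 lower, and 0 clusters held calls in both directions. Most of these clusters held a single call, so they could not hold both directions. In 11 of the 12 clusters some members did not pass. MIR100, whose product represses MTOR, lies beside MIRLET7A2. It measured 3.67, 4.02 and 4.32 on menthol arrays, against 4.67, 4.24 and 4.77 on vehicle arrays, a difference of -0.55 ± 0.19 with overlapping groups (limma adjusted p = 0.0602). It passed without menthol replicate 3 (0.0319) or vehicle replicate 2 (0.0291), or with a trended robust prior (0.0172). MIR29A, beside MIR29B1, differed by -0.39 ± 0.19 (0.165), MIR30E, beside MIR30C1, by -0.02 ± 0.13 (0.92), and MIR302A, beside MIR302B, by 0.19 ± 0.11 (0.26). MIR125A and MIRLET7E both rose, by 0.29 ± 0.08 and 0.57 ± 0.16, while MIR99B in the same cluster differed by -0.07 ± 0.11. MIR125A was lost without any one menthol replicate or vehicle replicates 1 or 3 (0.0505 to 0.0789), under cyclic loess (0.0522) and with a trended robust prior (0.0728). On chromosome 14, 2 of 16 members were higher (12.5%, against 14.6% of all genes), MIR134 and MIR377, named after their values were seen, and the median change was 0.18. MIR134 was lost without vehicle replicate 1 or 2 (up to 0.0542). MIR377, at percentile 0.0978 of gene levels, was lost without any one array (0.0616 to 0.134), under cyclic loess (0.319) and under quantile normalization (0.248).

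The miR-200 family represses ZEB1 and ZEB2, which encode repressors of CDH1. Of its 5 members 1 passed, against 29.1% of all genes. MIR141 measured 3.31, 3.15 and 3.12 on menthol arrays, against 2.98, 2.92 and 2.80 on vehicle arrays, and rose by 0.29 ± 0.08 (limma adjusted p = 0.0281). That call was lost without menthol replicates 1 or 2 or vehicle replicates 2 or 3 (0.0574 to 0.0905), under cyclic loess (0.0714) and with a trended robust prior (0.0839). CDH1 itself rose by 0.78 ± 0.07, and whether this is linked to the microRNA genes was not tested. MIR141 was dim, at percentile 5.93 of gene levels. MIR200C, on the same transcript, averaged 4.17 ± 0.14 on menthol and 4.21 ± 0.09 on vehicle arrays. MIR200A, MIR200B and MIR429 differed by -0.15 ± 0.12, 0.04 ± 0.15 and 0.11 ± 0.10, with adjusted p of 0.382 to 0.865.

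Other members known from cancer did not pass. MIR34A, a p53 target, averaged 3.14 ± 0.13 on menthol and 3.09 ± 0.14 on vehicle arrays (limma adjusted p = 0.722). MIR210, induced by hypoxia, averaged 7.14 ± 0.19 on menthol and 7.38 ± 0.16 on vehicle arrays (0.165). MIR31 averaged 4.19 ± 0.24 on menthol and 4.44 ± 0.27 on vehicle arrays (0.302). Of the 6 brightest members, MIR326, MIR339, MIR21, MIR210, MIR99B and MIR193A, MIR21 alone passed. MIR326 differed by 0.24 ± 0.11 (0.132), and passed among genes above the 50th percentile of level (0.0469), with a trended robust prior (0.0416) and without vehicle replicate 2 (0.0477). MIR205, MIR17, MIR155 and MIR22 had no probeset of their own.

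Many members sit inside the span of a host gene, counting host transcripts named after microRNAs, such as MIR222HG for MIR221 and MIR222. On the same strand, 112 of 164 members with a known strand lay within a host gene, and 63 member and host pairs were measured, over 52 hosts. Of the hosts, 6 were higher and 9 lower with menthol (limma adjusted p at most 0.05), against 14.6% and 14.5% of all genes. Member and host changed with the same sign in 30 of 63 pairs. Among the 14 pairs with a called member, 8 had the same sign. Over the 63 pairs, Pearson's r between the changes was 0.11 and Spearman's rho 0.11, across genes measured on the same arrays, with hosts repeated.

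**Figure D4:**
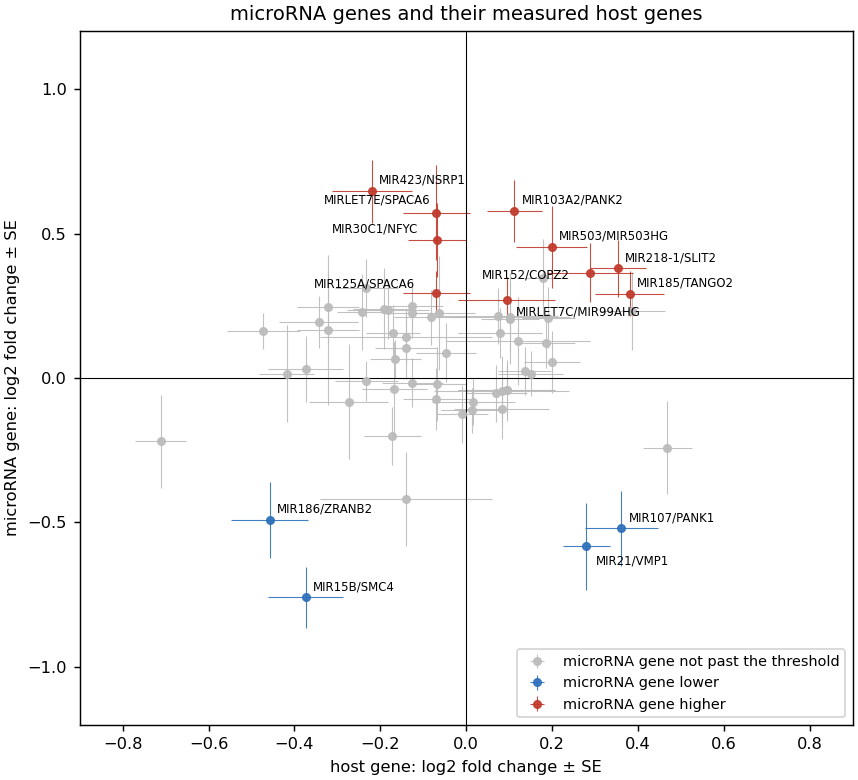
Log2 fold change of each microRNA gene against that of its measured host gene, both menthol minus vehicle with SE. MIR186 and MIR15B lie below 0 with their hosts, whereas MIR21 and MIR107 lie below 0 with hosts above 0.

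In 6 pairs both passed. MIR15B and MIR186 fell together with SMC4, by 0.37 ± 0.09 (limma adjusted p = 0.0158), and ZRANB2, by 0.46 ± 0.09 (0.0079). MIR218-1 and MIR185 rose together with SLIT2, by 0.35 ± 0.07 (0.0062), and TANGO2, by 0.38 ± 0.08 (0.0102). MIR21 and MIR107 fell while VMP1 and PANK1 rose, PANK1 by 0.36 ± 0.08 (0.0154). SMC4 and PANK1 were lost without vehicle replicate 2 or 3 (adjusted p up to 0.0565 and 0.0568). MIR185 rose by 0.29 ± 0.08 (0.0251) and was lost without menthol replicate 1 or vehicle replicates 1 or 3 (0.0505 to 0.076). For MIR423, MIR103A2, MIR30C1, MIR503, MIR152 and MIRLET7E, the hosts NSRP1, PANK2, NFYC, MIR503HG, COPZ2 and SPACA6 did not pass (0.0672 to 0.547).

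The host with the largest change was JAK1, the cytokine receptor kinase gene, which fell by 0.71 ± 0.06. MIR101-1 inside it differed by -0.22 ± 0.16 (limma adjusted p = 0.351). R3HDM1 fell by 0.47 ± 0.08 and WDR82, a subunit gene of histone H3 lysine methyltransferase complexes, by 0.42 ± 0.06. MIR128-1 and MIRLET7G inside them differed by 0.16 ± 0.06 (0.0874) and 0.01 ± 0.17 (0.96). MIR31HG rose by 0.47 ± 0.06 (adjusted p = 0.000967) and LPP, encoding a focal adhesion protein, by 0.39 ± 0.08, while MIR31 and MIR28 inside them differed by -0.24 ± 0.16 and 0.23 ± 0.14 without passing.

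Of the 45 genes listed for making, using or degrading microRNAs, 42 were measured. Lower with menthol were 9 and higher 2 (limma adjusted p at most 0.05), against the 14.5% and 14.6% of all genes given above, and the median change was -0.06. These genes were bright, with a median level of 8.38, and at such levels decreases were commoner: 20.2% of all genes in the third bin and 26.9% in the brightest were lower, against 21.4% of the list. Without vehicle replicate 3 the count was 6, and HNRNPA2B1, FMR1, RAN, AGO2 and DGCR8 were lost. ZC3H12A, a ribonuclease that degrades inflammatory messages and some precursors, averaged 8.03 ± 0.03 on menthol and 8.76 ± 0.04 on vehicle arrays (SD, n = 3 each). It fell by 0.72 ± 0.06 (adjusted p = 0.000184). XPO5, which exports hairpins from the nucleus, measured 8.89, 8.99 and 9.04 on menthol arrays, against 9.43, 9.43 and 9.34 on vehicle arrays. It fell by 0.43 ± 0.07 (0.003), and the groups did not overlap.

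KHSRP, which promotes processing of let-7 and other precursors, fell by 0.48 ± 0.08 (limma adjusted p = 0.00466). HNRNPA1, which binds the terminal loop of some hairpins, fell by 0.49 ± 0.09 (0.00482), and has many near-identical copies that its probes could also read. HNRNPA2B1, which helps sort primary transcripts to DROSHA, fell by 0.38 ± 0.09 (0.0154). ADARB1, an enzyme that edits adenosine to inosine in double-stranded RNA, measured 8.14, 8.24 and 8.22 on menthol arrays, against 7.56, 7.54 and 7.64 on vehicle arrays. It rose by 0.62 ± 0.06 (0.000425). Of the core enzymes, DROSHA averaged 8.27 ± 0.09 on menthol and 8.47 ± 0.06 on vehicle arrays (0.0711), and DICER1 8.42 ± 0.03 and 8.37 ± 0.06 (0.618). DGCR8, the partner of DROSHA, rose by 0.33 ± 0.08 (0.0197), and was lost without menthol replicates 2 or 3 or vehicle replicates 2 or 3 (up to 0.0658). The other 4 lower genes, GEMIN4, FMR1, RAN and AGO2, fell by 0.34, 0.26, 0.23 and 0.22. FMR1 was also lost without vehicle replicate 1. RAN was lost without any one menthol replicate or vehicle replicate 2, and AGO2 without menthol replicate 2 or vehicle replicates 1 or 2 (up to 0.103 and 0.0875).

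**Figure D5:**
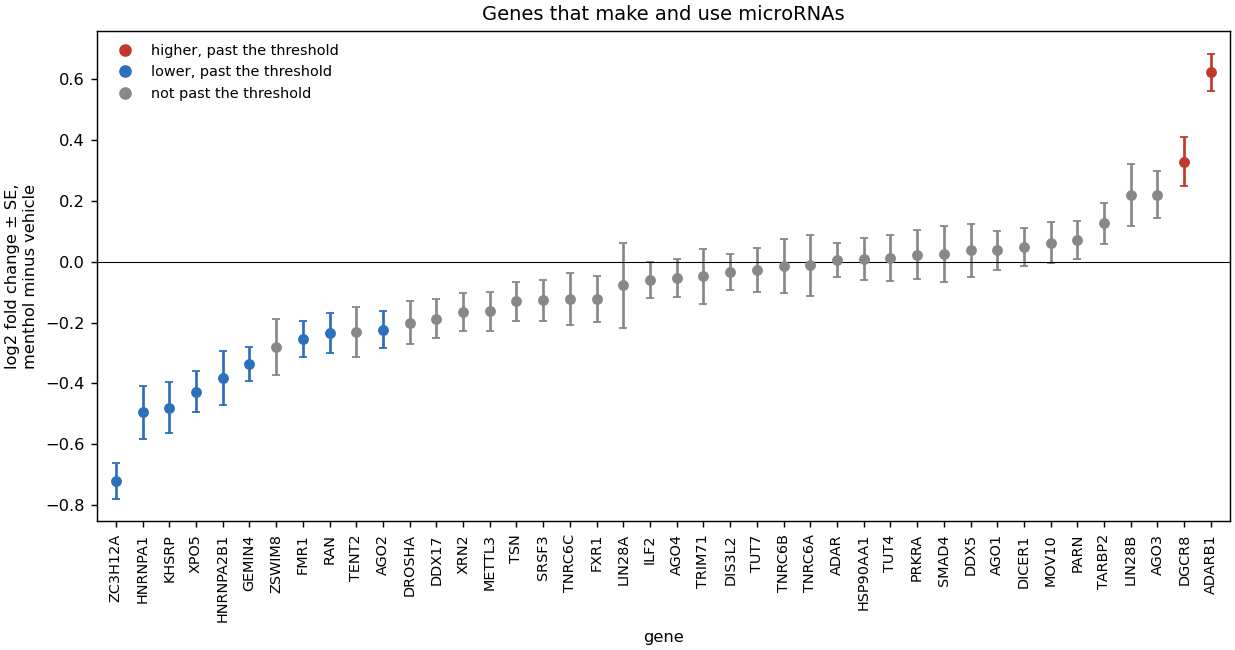
Log2 fold changes (menthol minus vehicle, ± SE) of the measured genes that make, use or degrade microRNAs. ZC3H12A at -0.72 and ADARB1 at 0.62 lie at the ends, and DICER1 lies at 0.05.

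Levels and changes were also set against the base composition of the hairpins. Over the 155 members with a hairpin in the table, GC percent and mean level had Pearson's r of 0.75 and Spearman's rho of 0.73, and GC percent and fold change 0.11 and 0.09. These are descriptions across genes that share 6 arrays, and the probes share the base composition of the hairpins. Level and fold change had r of -0.08 and rho of -0.04 over the 173 members, against -0.18 and -0.24 over all genes.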

How the data were processed

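Total RNA of PC-3 cells, 3 menthol and 3 vehicle samples, was hybridised to whole-transcript arrays of 1 colour. The authors deposited linear intensity values for 32321 probesets; the submitters' processing notes name RMA, and the log2 was taken here. Of the probesets, 19158 had 1 gene symbol in the platform annotation, 1388 had several and 11775 none, and 19128 matched a gene table of GRCh38.p14 by Entrez number. Of several probesets for a gene, the brightest on average was used. The median intensity of an array was 47.4 to 49.1, with vehicle replicate 3 lowest and the next array at 48.5. The members' median level was 3.80 to 3.85 on menthol and 3.59 to 3.74 on vehicle arrays. With array medians made equal, 31 members were called, 20 higher and 11 lower, against 28.1% of all genes.

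The comparison used limma (version 3.58.1, under R 4.3.3), by lmFit and eBayes, two-sided, with Benjamini-Hochberg adjustment over 18404 genes. An exact permutation of 3 against 3 arrays cannot go below 0.10. The procedure was tested on simulated data. Named were up to 12 members with the largest change in each direction among called members with separate groups, 23 members listed by symbol, the 6 brightest, neighbours of the first sets, and up to 6 hosts and 6 biogenesis genes with the largest called change. The members, the lists and this rule were chosen with earlier results of these data known. Alternatives were other normalizations, filters on dim genes, other uses of probesets, a trended prior, array weights, a replicate block, a stricter threshold and each array left out. Mature sequences and hairpins came from RefSeq, where 155 members had a hairpin.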

Additional observations from a re-analysis of the deposited data

How the results depend on the processing

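Of the 34 calls, 0 changed direction in any alternative tried, but only the other normalizations could have reversed one. The groups of all 34 did not overlap, so leaving out or weighting arrays could not reverse a sign. The remaining settings left the fold changes as they were. The share of all genes called was 28.2% under cyclic loess, 17.3% with every probeset tested singly, 15.4% at an adjusted p of 0.01, 40.8% and 54.3% among genes above the 25th and 50th percentile of level, 33.7% with a trended robust prior and 20.9% to 26.2% with 1 array left out. In the same settings the members called numbered 22, 11, 7, 13 of 51 tested, 4 of 11 tested, 30 and 14 to 33. Biogenesis genes called numbered 17 of 37 tested above the 50th percentile, 18 of 42 with a trended robust prior, 6 at 0.01, and 6 to 11 with 1 array left out, against 11 as reported. Under cyclic loess and quantile normalization, 3 were higher and 7 lower. Hosts called numbered 24 of 46 tested above the 25th and 24 of 37 above the 50th percentile, 8 at 0.01, and 10 to 15 with 1 array left out, against 15. Hosts split into 9 higher and 8 lower under cyclic loess, 9 and 7 under quantile normalization and 9 and 9 with array weights, against 6 and 9. The filters change how many genes are adjusted over, and testing every probeset singly adjusts over all probesets. The threshold of 0.01 is a stricter cut on the same fit. For the other shifts the cause was not tested. Of the 28 named members that did not pass, 14 changed sign somewhere: MIR34A (-0.039), MIR200B (-0.013), MIRLET7G (-0.060) and MIR16-2 (-0.067) under cyclic loess, MIRLET7G (-0.022) and MIR16-2 (-0.017) under quantile normalization, MIRLET7G (-0.0062) with equal array medians, and MIR27A (0.011) and MIR30E (0.072) with array weights. With 1 array left out the log2 fold change ran from -0.022 to 0.14 for MIR34A, -0.090 to 0.17 for MIR200B, -0.12 to 0.015 for MIR200C, -0.12 to 0.17 for MIRLET7G, -0.10 to 0.48 for MIRLET7F2, -0.045 to 0.13 for MIR339, -0.14 to 0.034 for MIR99B, -0.18 to 0.038 for MIR193A, -0.11 to 0.0031 for MIR125B2, -0.043 to 0.14 for MIR16-2, -0.023 to 0.15 for MIR23A, -0.071 to 0.076 for MIR27A, -0.14 to 0.095 for MIR30E and -0.15 to 0.041 for MIR99A. Deviations of same-numbered arrays correlated at 0.006, -0.007 and 0.091, and 2 of 6 arrays correlated best with their own number. These values do not settle whether same-numbered samples were handled together. With a replicate block, 31 members were called, 20 higher and 11 lower, of which 23 were also called without it, with 9 biogenesis genes and 14 hosts. MIR21, MIR30C1, MIR503, MIR29B1, MIRLET7C and MIR129-1 did not pass with the block (0.0546 to 0.0664), and MIR100 (0.0448), MIRLET7D (0.0255) and MIR29A (0.0127) did.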

Other observations

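Transcripts named as microRNA hosts were left out of the members. They were read as 16 genes, of which 2 were higher and 3 lower with menthol, against 14.6% and 14.5% of all genes. Those named here were chosen after their values were seen. MIR17HG, the primary transcript of the miR-17 to miR-92a cluster that MYC activates, measured 4.99, 5.35 and 5.50 on menthol arrays, against 6.10, 5.88 and 5.99 on vehicle arrays. It fell by 0.71 ± 0.13 (limma adjusted p = 0.00572), with no overlap between groups. MIR4697HG fell by 1.04 ± 0.11 (0.000468) and MIR4453HG by 0.24 ± 0.07 (0.0392). MIR22HG, the transcript that holds miR-22, measured 5.83, 5.83 and 5.69 on menthol arrays, against 5.37, 4.94 and 5.28 on vehicle arrays, and rose by 0.59 ± 0.11 (0.00727).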
